A study of Mus with 51 samples.

Results

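Transcripts of B lymphocytes were measured in libraries made from sorted mouse lymph node T cells. The genes were a list of 31 symbols chosen by name as B-cell genes, of which 30 stood in a count table of 34923 features. The other symbol, Faim3, is an older name of Fcmr, which the list also holds, so it was counted once. All 30 genes also passed the filter on low counts that left 17211 genes for testing.

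The B-cell antigen receptor is a membrane immunoglobulin, made of heavy and light chains, bound to the signalling pair Cd79a and Cd79b. Kinases and adaptors such as Lyn, Blk, Btk, Blnk and Bank1 pass its signal on, while Cd22, Cd72, Fcgr2b and Siglecg dampen it. Pax5 and Ebf1 fix the B-lineage programme, and Spib and Pou2af1 act in mature B cells. In lymph nodes B cells lie in follicles beside the T-cell zone, and they present peptides on MHC class II to CD4 T cells.

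The mice carried the 5C.C7 T-cell receptor transgene on a B10.A background with the Rag2tm1Fwa allele, which removes Rag2 function and with it the animal's own mature B cells. All 18 groups share this strain and tissue; the labels give no age or sex. The groups were 6 sorting phenotypes at 1, 6 and 24 h: MCC CD69-hi, MCC+GP CD69-hi, MCC CD69-lo, MCC+GP CD69-lo, GP and NP. MCC is the agonist peptide of this receptor, GP is an endogenous self-peptide, NP had no peptide, and hi and lo are gates on the activation marker CD69. There were 51 libraries: 3 in each of 15 groups and 2 in NP, GP and MCC CD69-lo at 6 h. The labels do not say which cells presented the peptides, what the GP and NP gates were, or whether the libraries of a group came from separate animals, so the p-values measure the spread between these libraries, which may be technical.

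Libraries held between 29030 and 10278776 counts. At 24 h the 3 libraries of MCC+GP CD69-lo were the shallowest, with 237390, 29030 and 301455 counts, and they also stood apart in content. The 15 T-cell marker genes listed (among them Cd3e, Cd4 and Lck) summed to 3415 to 4905 CPM there and to 11530 to 20690 CPM in the other 48 libraries, where CPM are counts scaled to 1000000 per library with TMM factors. Results that use these 3 libraries rest on few reads, as 10 to 46 counts of Cd79a per library show.

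B-cell transcripts were found in each library, and their summed level ran from 399 to 6763 CPM over the 51 libraries. Low sums rested mostly on a few of the 30 genes. In the library with 399 CPM, MCC+GP CD69-hi replicate 2 of 24 h, Ighm had 152.5 and Swap70 86.2 CPM. Pou2af1 had 54.3, Cd24a 45.9 and Ralgps2 27.5 CPM there, and Cd79a had 1.74 CPM from 9 counts. At 1 h the MCC CD69-hi libraries held 6543, 4069 and 5668 CPM of the 30 genes, and those of MCC+GP CD69-hi held 3952, 6763 and 5783 CPM. The MCC CD69-lo libraries had sums of 1937, 1928 and 5545 CPM, those of MCC+GP CD69-lo 3979, 1612 and 3321 CPM, those of GP 903, 782 and 1166 CPM, and those of NP 1035, 767 and 759 CPM. The 2 CD69-hi groups lay far above GP and NP, and the CD69-lo groups lay between and overlapped the CD69-hi range. That overlap was between plate rounds, which were read from wells in the titles. In each round shared by the gates at 1 h, CD69-hi held the higher sum, with MCC and with MCC+GP. At 6 h the MCC CD69-hi libraries held 2330, 1358 and 2581 CPM, and those of MCC+GP CD69-hi held 2548, 1466 and 2407 CPM. The MCC CD69-lo libraries had sums of 1922 and 1286 CPM, those of MCC+GP CD69-lo 3066, 2330 and 2482 CPM, those of GP 844 and 615 CPM, and those of NP 921 and 536 CPM. At 24 h the order of the gates had turned, with 523, 440 and 645 CPM for the MCC CD69-hi libraries and 603, 399 and 611 CPM for those of MCC+GP CD69-hi. The MCC CD69-lo libraries then had sums of 995, 1500 and 1953 CPM, those of MCC+GP CD69-lo 3517, 1756 and 3067 CPM, those of GP 901, 622 and 988 CPM, and those of NP 962, 757 and 1051 CPM. In GP and NP the sum stayed between 536 and 1166 CPM at the 3 times. Of the 30 genes 12 are also known in myeloid, dendritic or T cells. More B cells among the sorted cells, more RNA per B cell and transcripts of other cells cannot be told apart in these bulk libraries.

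**Figure D1:**
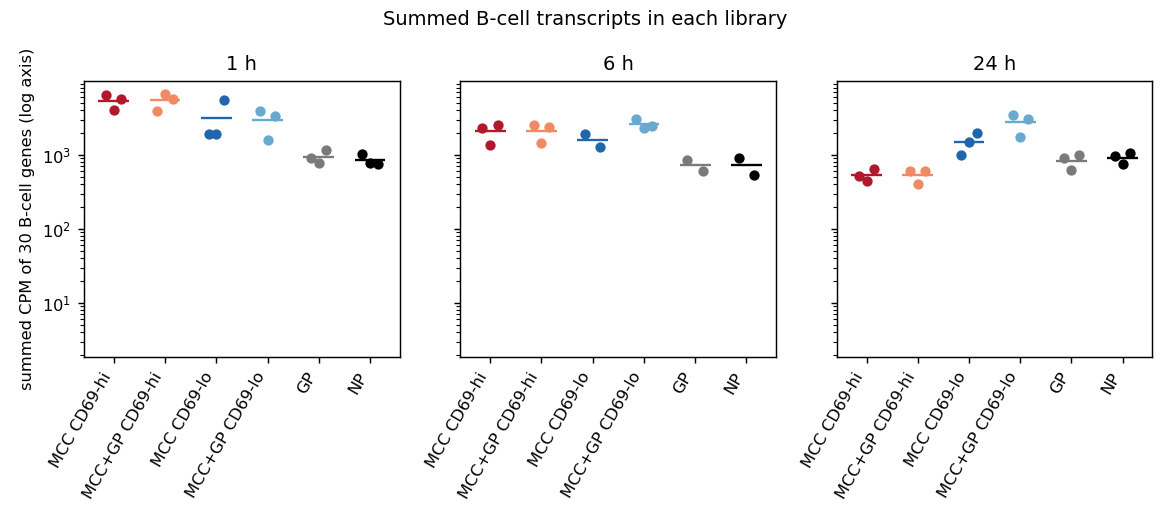
Summed CPM of the 30 B-cell genes (log axis) in each library, by sorting phenotype, in 1 panel per time; points are libraries and bars are group means. At 1 h the CD69-hi libraries lie between 3952 and 6763 CPM and NP between 759 and 1035, while at 24 h the CD69-hi libraries lie between 399 and 645 CPM, below NP at 757 to 1051.

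Per transcript length, the most abundant of the 30 genes in MCC CD69-hi at 1 h were the kappa light-chain constant gene Igkc and the mu heavy-chain gene Ighm. On the authors' per-length scale, rescaled to sum to 1000000 in a library, Igkc averaged 1214 and Ighm 1052 in MCC CD69-hi at 1 h, against 88.6 and 239 in NP. Fcer2a (235 in MCC CD69-hi, 15.7 in NP), Pax5 (205 and 23.01) and Cd79a (202 and 30.8) followed. Vpreb3, which assists receptor assembly in immature B cells, was the lowest of the 30, at 4.51 in MCC CD69-hi and 1.02 in NP.

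At 1 h B-cell transcripts of all 4 roles were higher in MCC CD69-hi than in NP. Of 30 genes 28 were called higher and none lower (edgeR quasi-likelihood test, adjusted p under 0.05), where 12.4% of the tested genes were called higher; the median log2 fold change of the 30 was 3.04, against -0.05 over all genes. The called genes were 6 of 7 receptor chains, 11 of 11 surface receptors, 7 of 8 signalling genes and 4 of 4 transcription factors, and the exceptions were Vpreb3 and Ralgps2. The 9 MHC class II genes listed (such as Cd74 and H2-Aa) were also called higher in 9 of 9 cases and summed to 3057 to 5470 CPM in MCC CD69-hi against 354 to 667 CPM in NP. Of 19 myeloid and dendritic genes 12 were called higher (summed 288 to 477 CPM in MCC CD69-hi against 74.8 to 112 CPM in NP), and 9 of 15 T-cell genes were called lower; the part of these other cells in the result was not tested.

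Cd79a (chr7:24897497-24901858 in GRCm38), the signalling chain of the receptor, had 266, 174 and 232 CPM in MCC CD69-hi, against 47.6, 32.6 and 27.2 CPM in NP. Ighm (chr12:113418826-113422730), the heavy chain of IgM, had 1698, 1044 and 1089 CPM in MCC CD69-hi, against 361, 275 and 276 CPM in NP. Igkc (chr6:70726435-70726754) had 605, 397 and 474 CPM in MCC CD69-hi, against 60.1, 26.4 and 25.9 CPM in NP. For these 3 receptor chains the groups did not overlap. The log2 fold change was 2.65 ± 0.47 for Cd79a (SE, adjusted p = 4.37e-05), 2.07 ± 0.35 for Ighm (adjusted p = 1.66e-05) and 3.70 ± 0.60 for Igkc (adjusted p = 1.24e-05, edgeR).

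Among surface receptors, Fcer2a (CD23, the low-affinity IgE receptor; chr8:3680280-3694174) had 256, 147 and 209 CPM in MCC CD69-hi, against 17.8, 10.6 and 14.4 CPM in NP. Cr2 (CD21, the complement receptor; chr1:195136811-195176880) had 190, 43.1 and 165 CPM in MCC CD69-hi, against 11.7, 6.20 and 14.6 CPM in NP. Ms4a1 (CD20; chr19:11249679-11266149) had 148, 96.7 and 194 CPM in MCC CD69-hi, against 20.4, 19.0 and 13.1 CPM in NP. All 3 groups of values were apart, and CD23 and CD21 are proteins of mature follicular B cells. Fcmr, the IgM Fc receptor (chr1:130865777-130880790), had 128, 92.1 and 131 CPM in MCC CD69-hi, against 19.8, 14.8 and 11.4 CPM in NP. Cd24a, a surface glycoprotein also found on other cells (chr10:43579169-43584265), had 320, 187 and 322 CPM in MCC CD69-hi, against 30.1, 20.2 and 19.9 CPM in NP. Neither gene's groups overlapped. The log2 fold changes were 3.84 ± 0.51 for Fcer2a (adjusted p = 3.4e-07), 3.67 ± 0.67 for Cr2, 3.08 ± 0.62 for Ms4a1, 2.94 ± 0.51 for Fcmr and 3.57 ± 0.30 for Cd24a (adjusted p = 7.46e-12, edgeR). Of the 30, Tnfrsf13c, the receptor for the survival factor BAFF, differed the most: 135, 132 and 119 CPM in MCC CD69-hi, against 9.99, 8.80 and 3.21 CPM in NP (log2 fold change 4.09 ± 0.52, edgeR adjusted p = 1.45e-07).

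Lyn, a Src-family kinase (chr4:3678068-3791612), had 117, 64.1 and 153 CPM in MCC CD69-hi, against 17.8, 14.8 and 17.6 CPM in NP. Pax5 (chr4:44524748-44710694) had 252, 147 and 203 CPM in MCC CD69-hi, against 26.3, 23.6 and 21.0 CPM in NP. Both were apart between the groups, with log2 fold changes of 2.78 ± 0.61 for Lyn (adjusted p = 0.000623) and 3.10 ± 0.61 for Pax5 (adjusted p = 0.000163, edgeR). Ralgps2, an exchange factor for Ral GTPases, had the lowest log2 fold change of the 30: it had 72.1, 53.6 and 97.1 CPM in MCC CD69-hi, against 99.0, 89.2 and 89.4 CPM in NP (-0.27 ± 0.25, edgeR adjusted p = 0.456). Its groups overlapped, and per transcript length it averaged 43.9 in NP, where Ighm and Igkc stood above it.

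**Figure D2:**
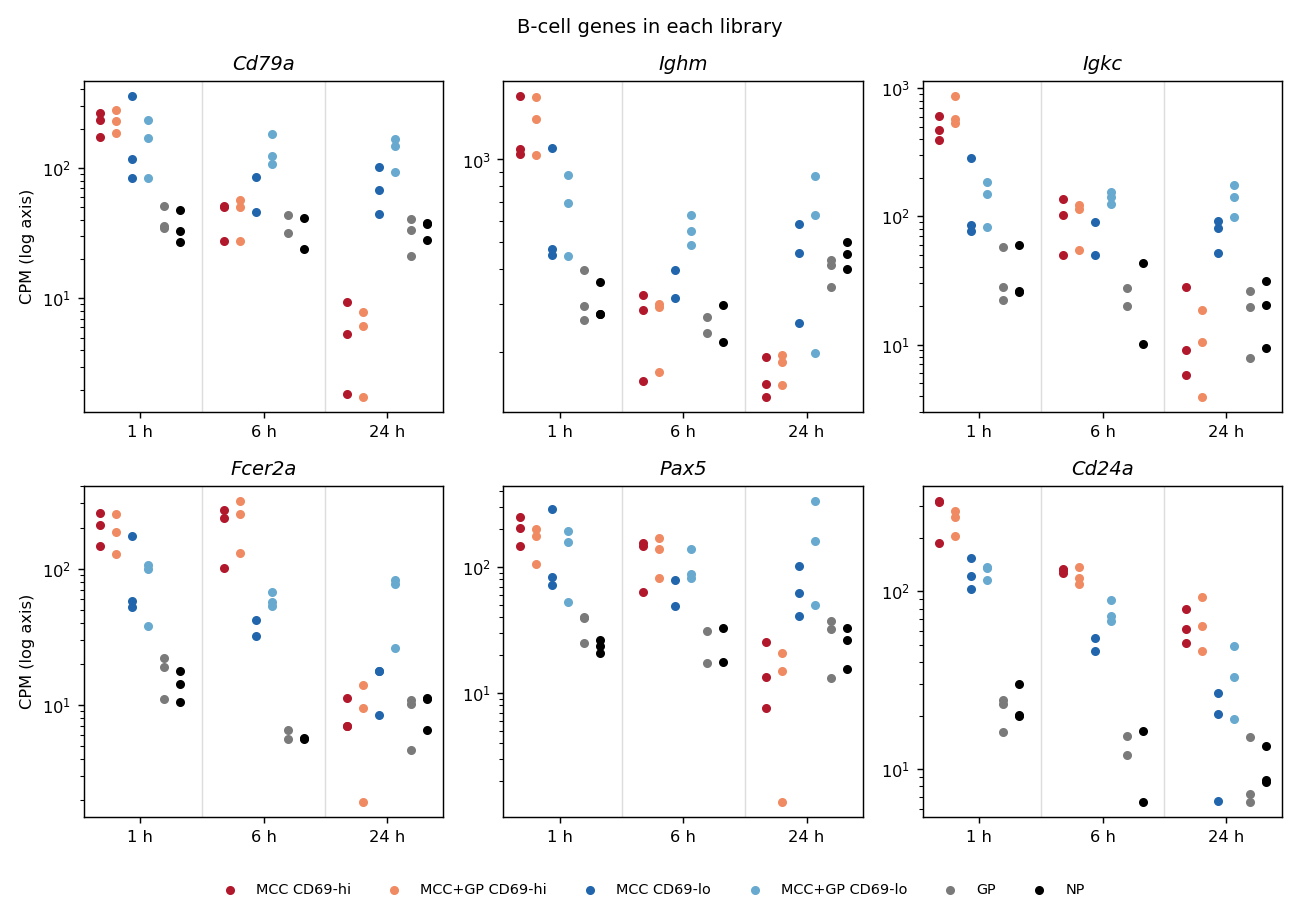
CPM (log axis) of 6 B-cell genes in each library at 1, 6 and 24 h; points are libraries, coloured by sorting phenotype in the order of the legend from left to right at each time. Fcer2a and Pax5 stay high in the CD69-hi groups at 6 h where Cd79a is between 27.5 and 56.4 CPM, and Cd24a alone of the 6 stays above NP in the CD69-hi groups at 24 h.

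MCC CD69-lo also held more B-cell RNA than NP at 1 h. In all 25 of 30 genes were called higher and none lower (2.72% of all genes were called higher; median log2 fold change 2.37 against -0.01 over all genes), and this comparison shares its NP libraries with the one above. Cr2 had the highest log2 fold change, with 32.1, 58.5 and 126 CPM in MCC CD69-lo, against 11.7, 6.20 and 14.6 CPM in NP (2.74 ± 0.65, edgeR adjusted p = 0.0109). Ralgps2 had the lowest, at 73.2, 91.4 and 165 CPM in MCC CD69-lo, against 99.0, 89.2 and 89.4 CPM in NP (0.25 ± 0.24, edgeR adjusted p = 0.818). Cd79a had 116, 84.0 and 356 CPM in MCC CD69-lo, against 47.6, 32.6 and 27.2 CPM in NP (2.36 ± 0.46, edgeR adjusted p = 0.00172). One library, MCC CD69-lo replicate 3, held the highest value of its group for 30 of 30 genes, with a median of 3.05 times the level in replicate 2. Without it 7 genes were called, without NP replicate 3 there were 15, and a fit of the 2 compared groups alone gave 3. The plate round of MCC CD69-lo replicate 3 holds no NP library, so round and phenotype cannot be told apart for that library. MHC class II genes were called higher in 8 of 9 cases, and their sum also was highest in replicate 3, at 4858 CPM against 1579 and 1707 CPM in the other 2 libraries.

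Between the gates at 1 h, few of the 30 genes were called in the fit without plate rounds. Within each plate round that the gates share, the B-cell sum was higher in CD69-hi. With MCC it was 4069 against 1937 CPM in round 2 and 5668 against 1928 CPM in round 3. With MCC+GP it was 3952 against 1612 CPM in round 2 and 6763 against 3321 CPM in round 3. With MCC 6 genes were called higher in CD69-hi than in CD69-lo (3.46% of all genes were): Igkc, Swap70, Tnfrsf13c, Cd24a, Cd72 and Pou2af1. With MCC+GP, in libraries not used by the MCC comparison, 6 were called higher (5.40% of all genes were): Igkc, Swap70, Tnfrsf13c, Ighm, Cd72 and Cd24a. None was called lower in either comparison. Igkc had the highest log2 fold change in both. It had 605, 397 and 474 CPM in MCC CD69-hi, against 86.3, 77.0 and 284 CPM in MCC CD69-lo (1.73 ± 0.55, adjusted p = 0.0333), and 534, 869 and 575 CPM in MCC+GP CD69-hi, against 185, 82.5 and 149 CPM in MCC+GP CD69-lo (2.25 ± 0.56, adjusted p = 0.0043, edgeR). Neither pair overlapped. Ighm had 1041, 1688 and 1397 CPM in MCC+GP CD69-hi, against 879, 447 and 693 CPM in MCC+GP CD69-lo, which is also apart (1.03 ± 0.34, edgeR adjusted p = 0.0289). Ralgps2 was lowest in both, at -0.52 ± 0.25 with MCC and -0.67 ± 0.27 with MCC+GP (adjusted p = 0.183 and 0.0737, edgeR). The MCC count was 3 without CD69-hi replicate 1, and 2, 1 and 11 without CD69-lo replicate 1, 2 or 3, and it was 16 with the plate round as a block and 3 with only the compared groups. The MCC+GP count was 3 without CD69-hi replicate 2 and 2 without CD69-lo replicate 2. With the plate round as a block the MCC+GP count was 9, with 8 higher and 1 lower. Fcer2a, Cd180 and Siglecg then also passed as higher, Ralgps2 passed as lower and Cd72 no longer passed.

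Markers of myeloid, dendritic and T cells moved with the gate at 1 h as well, and so did MHC class II genes. B cells make MHC class II too, so those genes do not mark other cells alone. The myeloid and dendritic genes summed to 477, 288 and 420 CPM in MCC CD69-hi, against 129, 202 and 233 CPM in MCC CD69-lo, and 3 of 19 were called higher. With MCC+GP they summed to 301.5, 601 and 472 CPM in CD69-hi, against 228, 119 and 301.1 CPM in CD69-lo, and 2 of 19 were called higher. Neither pair overlapped, and Siglech was the only one of the 19 at 0 in any of the 4 groups, in MCC+GP CD69-hi. MHC class II genes summed to 5470, 3057 and 4797 CPM in MCC CD69-hi, against 1579, 1707 and 4858 CPM in MCC CD69-lo. With MCC+GP the sums were 2950, 5822 and 5170 CPM in CD69-hi, against 3514, 1193 and 3174 CPM in CD69-lo. Both pairs overlapped, and 0 of 9 were called either way. Within the plate rounds that the gates share, CD69-hi was higher each time. The values were 3057 against 1579 CPM and 4797 against 1707 CPM with MCC. With MCC+GP they were 2950 against 1193 CPM and 5822 against 3174 CPM. Of 15 T-cell genes 8 were called lower in CD69-hi with MCC and 6 with MCC+GP. The part of other cells in the B-cell result was not tested.

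Igkc did not differ alone: other immunoglobulin transcripts were also high in the CD69-hi sorts at 1 h. Jchain, which joins secreted IgM and IgA and is made by antibody-secreting cells, had 165, 61.8 and 97.7 CPM in MCC CD69-hi, against 1.28, 2.21 and 7.60 CPM in MCC CD69-lo. With MCC+GP it had 76.7, 112 and 131 CPM in CD69-hi, against 2.77, 5.85 and 0.346 CPM in CD69-lo. It is one of 9 tested germinal centre and plasma cell genes, which the list of 30 does not hold. The CD69-hi and CD69-lo libraries of Jchain did not overlap, with log2 fold changes of 4.86 ± 0.78 with MCC (adjusted p = 3.52e-05) and 5.19 ± 0.80 with MCC+GP (adjusted p = 1.5e-05, edgeR). The other gene of that list called between gates with MCC was S1pr2 (1.24 ± 0.42, adjusted p = 0.039), and with MCC+GP it was Bcl6 (0.63 ± 0.21, adjusted p = 0.0306), a transcription factor that follicular T cells use as well. Against NP at 1 h, with 8.30, 0.400 and 3.43 CPM of Jchain, MCC CD69-hi was higher by 4.70 ± 0.76 (adjusted p = 1.22e-05), and Mzb1 (4.19 ± 0.69), Bcl6 (0.93 ± 0.21) and S1pr2 (1.05 ± 0.41) passed too (edgeR). At 6 h Jchain had 0.178, 0.139 and 0.574 CPM in MCC CD69-hi and 0.207, 0.355 and 0.455 CPM in MCC+GP CD69-hi.

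Variable segments of the immunoglobulin loci are not on the list of 30. At 1 h they summed to 1029, 589 and 667 CPM for the MCC CD69-hi libraries and to 689, 1129 and 814 CPM for those of MCC+GP CD69-hi. Sums were 133, 128 and 446 CPM for the MCC CD69-lo libraries, 306, 121 and 232 CPM for those of MCC+GP CD69-lo, 49.5, 42.7 and 95.2 CPM for GP, and 102, 34.4 and 44.4 CPM for NP. The CD69-hi libraries stood above the other libraries of that time. Over 51 libraries 133 heavy-chain, 132 kappa and 3 lambda segments had counts. In MCC CD69-hi at 1 h, with the libraries of the group pooled, the top segments were Ighv5-17 with 13.9% of 1854 heavy-chain segment counts and Igkv1-117 with 13.5% of 3198 kappa counts, over 76 and 86 segments. In MCC+GP CD69-hi at 1 h Ighv3-1 took 15.2% and Igkv6-15 20.6%. In the CD69-lo groups at 1 h no heavy-chain or kappa segment took over 5.84%, over 97 to 105 segments. The top heavy-chain and kappa segments took 9.55% and 10.7% in NP and 9.21% and 10.8% in GP at 1 h. In MCC CD69-lo at 24 h they took 18.7% of 348 and 16.7% of 504 counts. Large top shares were thus not particular to the CD69-hi sorts. Many segments are nearly identical, so a read's assignment to 1 of them is uncertain.

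**Figure D3:**
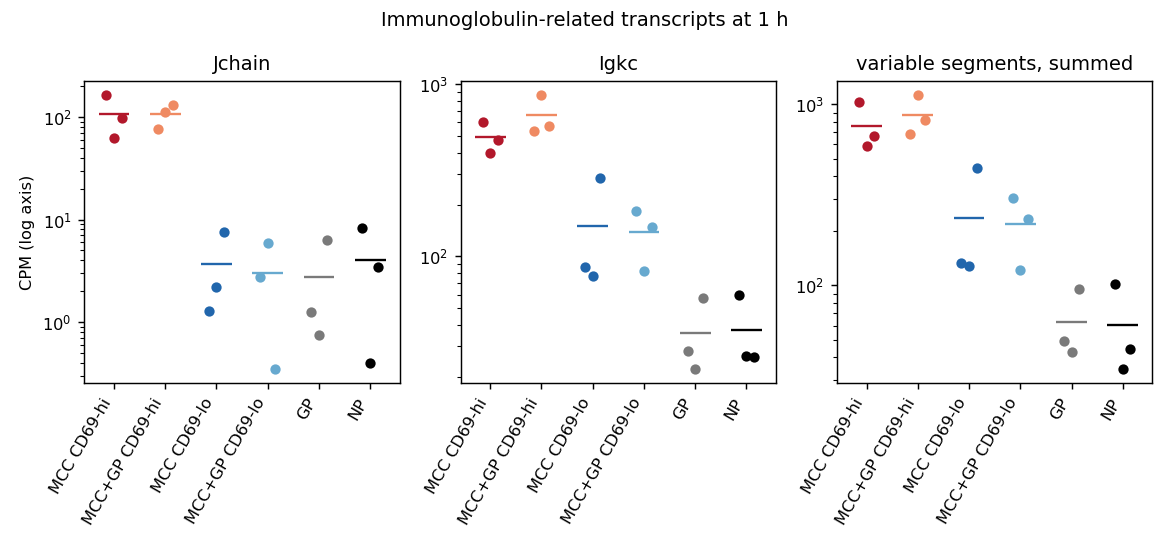
CPM (log axis) of Jchain, of Igkc and of all immunoglobulin variable segments summed, in each 1 h library; points are libraries and bars are group means. In each panel the 6 CD69-hi libraries lie above the 6 CD69-lo libraries, for Jchain at 61.8 to 165 CPM against 0.346 to 7.60 CPM.

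The self-peptide alone left no B-cell gene called. GP against NP gave 0 of 30 at 1 h (0% of all genes were called in either direction), 0 of 30 at 6 h (0%) and 0 of 30 at 24 h (0.00581%, 1 gene), and at an unadjusted p under 0.05 it also gave 0 of 30 at each time; DESeq2 called 0 of 30 as well. Log2 fold changes of the 30 ran from -1.50 (Vpreb3) to 0.72 (Cr2) at 1 h, from -0.71 (Vpreb3) to 0.61 (Cr2) at 6 h and from -0.97 (Fcgr2b, an inhibitory Fc receptor) to 0.95 (Vpreb3) at 24 h. For Cd79a, with 34.5, 36.2 and 51.5 CPM in GP and 47.6, 32.6 and 27.2 CPM in NP at 1 h, the 95% interval of the log2 difference was -0.73 to 1.08.

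With GP added to the agonist, B-cell genes were called in the 24 h CD69-lo comparison and in none of the other 5. In CD69-hi cells MCC+GP against MCC gave 0 of 30 at 1 h (0.680% of all genes were called), 0 of 30 at 6 h (0%) and 0 of 30 at 24 h (0%), and 0 of 30 at an unadjusted p under 0.05 and with DESeq2 at each time. The extreme members were Vpreb3 (1.59 ± 1.05) and Pou2af1 (-0.41 ± 0.29) at 1 h, Vpreb3 (0.51 ± 0.95) and Siglecg (-0.29 ± 0.40) at 6 h, and Vpreb3 (0.47 ± 1.19) and Fcrla (-1.27 ± 1.18) at 24 h. In CD69-lo cells the counts were 0 of 30 at 1 h (0%) and 0 of 30 at 6 h (0%), with 0 and 2 at an unadjusted p under 0.05 and none with DESeq2. Extremes were Iglc2 (0.29 ± 0.50) and Cd79b (-0.35 ± 0.46) at 1 h, and Vpreb3 (1.79 ± 1.12) and Ralgps2 (0.19 ± 0.27) at 6 h.

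At 24 h 4 of 30 genes were called higher in MCC+GP CD69-lo than in MCC CD69-lo (7.37% of all genes were): Blnk, Cd180, Spib and Swap70, genes that are also known in myeloid or dendritic cells. Blnk, the adaptor below the receptor, had the highest log2 fold change, with 60.7, 49.7 and 75.6 CPM in MCC+GP CD69-lo, against 8.502, 21.4 and 11.7 CPM in MCC CD69-lo (2.15 ± 0.75, edgeR adjusted p = 0.0413), from 19, 3 and 29 counts in the MCC+GP CD69-lo libraries. Ralgps2 had the lowest, at 57.5, 0 and 57.4 CPM in MCC+GP CD69-lo, against 55.7, 78.4 and 80.9 CPM in MCC CD69-lo (-0.50 ± 0.40, edgeR adjusted p = 0.405). Beside this, 9 of 19 myeloid and dendritic genes were called higher, with sums of 3347 to 4980 CPM in MCC+GP CD69-lo against 746 to 1161 CPM in MCC CD69-lo, and 13 of 15 T-cell genes were called lower; their part was not tested. Of the myeloid and dendritic list Ccl17, C1qa and C1qb had no count in MCC+GP CD69-lo, and Xcr1, C1qa and C1qb none in MCC CD69-lo. The count of 4 was 2 without MCC CD69-lo replicate 1, 2 or 3, 2 without MCC+GP CD69-lo replicate 1 and 1 without replicate 3, and it was 13 with the plate round as a block and 11 with DESeq2.

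At 6 h some B-cell genes were above NP in MCC CD69-hi and others were not. In MCC CD69-hi against NP 13 of 30 were called higher (23.2% of all genes were) and 1, Ralgps2, lower (23.6% were); the median log2 fold change was 1.22, against 0 over all genes. The higher genes were Fcer2a, Swap70, Pou2af1, Cd24a, Cr2, Tnfrsf13c, Pax5, Ms4a1, Spib, Igkc, Blnk, Siglecg and Cd72, so 1 of 7 receptor chains, 7 of 11 surface receptors, 2 of 8 signalling genes and 3 of 4 transcription factors. Fcer2a was the most changed, with 234, 102 and 268 CPM in MCC CD69-hi, against 5.76 and 5.63 CPM in NP (5.13 ± 0.66, edgeR adjusted p = 3.79e-08). The groups did not overlap. Cd79a had 51.3, 27.5 and 50.3 CPM in MCC CD69-hi, against 41.0 and 23.9 CPM in NP, which overlapped (0.40 ± 0.52, edgeR adjusted p = 0.564). In both plate rounds that the groups share Cd79a was higher in MCC CD69-hi, at 51.3 against 41.0 CPM and 27.5 against 23.9 CPM. Ralgps2 had 32.3, 23.6 and 28.1 CPM in MCC CD69-hi, against 105 and 77.6 CPM in NP (-1.71 ± 0.27, edgeR adjusted p = 9.23e-07). MHC class II genes were called higher in 3 of 9 cases (summed 378 to 1150 CPM in MCC CD69-hi against 123 to 365 CPM in NP) and myeloid and dendritic genes in 6 of 19. Without NP replicate 2 the 14 calls were 7, 6 higher and 1 lower.

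Other members at 6 h divided the same way. Pax5 had 156, 63.4 and 148 CPM in MCC CD69-hi, against 32.9 and 17.8 CPM in NP (2.26 ± 0.68, adjusted p = 0.00592), Ms4a1 had 79.2, 40.6 and 90.3 CPM against 24.5 and 9.67 CPM (2.02 ± 0.70, adjusted p = 0.0159), and Cd24a had 131, 128 and 133 CPM against 16.3 and 6.51 CPM (3.51 ± 0.37, adjusted p = 1.65e-10, edgeR). These were apart from NP. Cr2 had 34.8, 9.87 and 42.9 CPM in MCC CD69-hi, against 3.13 and 3.34 CPM in NP (3.16 ± 0.87, adjusted p = 0.00292), and Igkc had 103, 50.5 and 136 CPM against 43.0 and 10.2 CPM (1.85 ± 0.67, adjusted p = 0.0228, edgeR). Ighm (285, 157 and 323 CPM against 297 and 217 CPM in NP), Lyn (19.0, 10.01 and 20.8 CPM against 14.99 and 4.57 CPM) and Fcmr (32.5, 17.9 and 25.4 CPM against 21.4 and 9.85 CPM) overlapped NP, with log2 fold changes of -0.01, 0.75 and 0.68 and adjusted p of 0.999, 0.421 and 0.34 (edgeR). In both plate rounds that the groups share, Lyn and Fcmr were higher and Ighm lower in MCC CD69-hi than in NP.

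In MCC CD69-lo against NP at 6 h 5 of 30 genes were called higher and none lower (2.12% of all genes were called higher): Swap70, Fcer2a, Siglecg, Cd24a and Pou2af1. Swap70, an actin-linked signalling protein of B cells that other haematopoietic cells make too, led with 235 and 173 CPM in MCC CD69-lo, against 34.8 and 13.7 CPM in NP (3.07 ± 0.52, edgeR adjusted p = 0.000233). Vpreb3 was lowest (-0.89 ± 1.21, edgeR adjusted p = 0.929). This comparison shares its NP libraries with the one above. The count was 2 without MCC CD69-lo replicate 1, 0 without NP replicate 2 and 12 with the plate round as a block. Of 19 myeloid and dendritic genes 4 were called higher, with sums of 711 and 594 CPM in MCC CD69-lo against 151 and 58.0 CPM in NP; their part was not tested.

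The gates at 6 h differed in both directions. With MCC 4 of 30 genes were called higher in CD69-hi than in CD69-lo (Fcer2a, Pou2af1, Tnfrsf13c and Cd24a; 19.9% of all genes were) and 2 lower (Ralgps2 and Fcrla, an Fc-receptor-like protein inside B cells; 22.5% were). With MCC+GP 3 were called higher (Fcer2a, Pou2af1 and Cd24a; 20.9%) and 8 lower (Cd22, Siglecg, Fcrla, Ralgps2, Cd79a, Cd79b, Fcmr and Ighm; 25.2%). In this fit, without plate rounds, these shares lie near or below those of all genes. Fcer2a led in both, at 234, 102 and 268 CPM in MCC CD69-hi against 42.2 and 31.9 CPM in MCC CD69-lo (2.44 ± 0.53, adjusted p = 0.000274), and at 313, 131 and 252 CPM in MCC+GP CD69-hi against 67.4, 56.9 and 53.2 CPM in MCC+GP CD69-lo (1.97 ± 0.45, adjusted p = 0.000411, edgeR). Neither pair overlapped. Fcrla was lowest with MCC, at 6.57, 4.73 and 8.90 CPM in CD69-hi against 29.1 and 12.9 CPM in CD69-lo (-1.63 ± 0.62, edgeR adjusted p = 0.0318). Cd22, an inhibitory lectin, was lowest with MCC+GP, at 25.8, 10.5 and 15.2 CPM in CD69-hi against 90.7, 39.8 and 49.8 CPM in CD69-lo (-1.83 ± 0.64, edgeR adjusted p = 0.0192). Cd79a had 56.4, 27.7 and 50.5 CPM in MCC+GP CD69-hi, against 182, 124 and 107 CPM in MCC+GP CD69-lo, again apart (-1.62 ± 0.45, edgeR adjusted p = 0.00328). The MCC count of 6 was 14 with the plate round as a block, 6 higher and 8 lower. Of 17211 genes 3599 were then higher and 4192 lower. The MCC+GP count of 11 was 21 with the block, 4 higher and 17 lower. Of all genes 3780 were then higher and 4627 lower. Without CD69-hi replicate 2 the MCC+GP count was 7, and without CD69-lo replicate 1 it was 6.

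Markers of myeloid, dendritic and T cells also differed between the gates at 6 h, as did MHC class II genes, which B cells make too. With MCC+GP the MHC class II genes summed to 726, 399 and 954 CPM in CD69-hi, against 1496, 1291 and 1577 CPM in CD69-lo, and 3 of 9 were called lower. Myeloid and dendritic genes summed to 505, 334 and 620 CPM in MCC+GP CD69-hi, against 653, 1053 and 998 CPM in MCC+GP CD69-lo, and 8 of 19 were called lower. The T-cell genes summed to 16420, 19600 and 18910 CPM in MCC+GP CD69-hi, against 12680, 14910 and 12190 CPM in MCC+GP CD69-lo, with 4 of 15 called higher and 7 lower. None of these 3 sums overlapped between the gates. With MCC the same sums overlapped, at 378 to 1150 CPM in CD69-hi against 704 and 1144 CPM in CD69-lo for MHC class II genes (0 of 9 called), 347 to 747 CPM against 594 and 711 CPM for myeloid and dendritic genes (2 of 19 lower), and 15300 to 20690 CPM against 12240 and 15440 CPM for T-cell genes (3 higher and 7 lower). In both plate rounds that the MCC gates share, MHC class II and myeloid and dendritic sums were lower and T-cell sums higher in CD69-hi. This was the direction seen with MCC+GP. Siglech had no count in either CD69-hi group, Clec9a none in MCC CD69-lo and C1qb none in MCC+GP CD69-lo. Their part in the result was not tested.

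Levels of some of these genes relative to Cd79a within a library differed between 1 and 6 h in the CD69-hi sorts. Cd79a itself was lower at 6 h, so the ratio also rises for a gene whose level did not change. Cd24a and Swap70 are known in other cells too. Pou2af1 had 59.7, 60.2 and 60.7 CPM in MCC CD69-hi at 24 h, where Cd79a had 5.35, 1.84 and 9.39 CPM. Which cells held the transcripts of any of these genes was not tested. Fcer2a stood at 0.846 to 0.960 times the Cd79a CPM in MCC CD69-hi at 1 h and at 3.69 to 5.34 times at 6 h, while in NP the ratio was 0.325 to 0.528 at 1 h and 0.141 to 0.235 at 6 h. Pou2af1, a coactivator of immunoglobulin transcription, stood at 0.729 to 1.14 in MCC CD69-hi at 1 h and at 4.29 to 8.84 at 6 h, with 0.528 to 0.693 and 0.544 to 0.546 in NP. Swap70 stood at 0.980 to 1.69 and then 7.51 to 9.68 in MCC CD69-hi, with 0.681 to 0.756 and 0.574 to 0.847 in NP. For these genes the 6 h CD69-hi values lay apart from both the 1 h values and NP. The same held for Pax5, at 0.846 to 0.947 and then 2.30 to 3.03 in MCC CD69-hi with 0.743 to 0.803 in NP at 6 h, and for Cd24a, at 1.07 to 1.39 and then 2.56 to 4.64 with 0.272 to 0.398 in NP at 6 h. It did not hold for Lyn, which in MCC CD69-hi stood at 0.369 to 0.662 at 1 h and 0.364 to 0.414 at 6 h, nor for Ighm, at 4.70 to 6.38 and 5.56 to 6.43. MCC+GP CD69-hi, which shares no library with MCC CD69-hi, gave 4.72 to 5.54 for Fcer2a, 4.37 to 8.93 for Pou2af1 and 2.78 to 3.04 for Pax5 at 6 h. In MCC CD69-lo at 6 h Fcer2a stood at 0.499 and 0.690, Pou2af1 at 0.724 and 1.00, and Swap70 at 2.78 and 3.74.

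**Figure D4:**
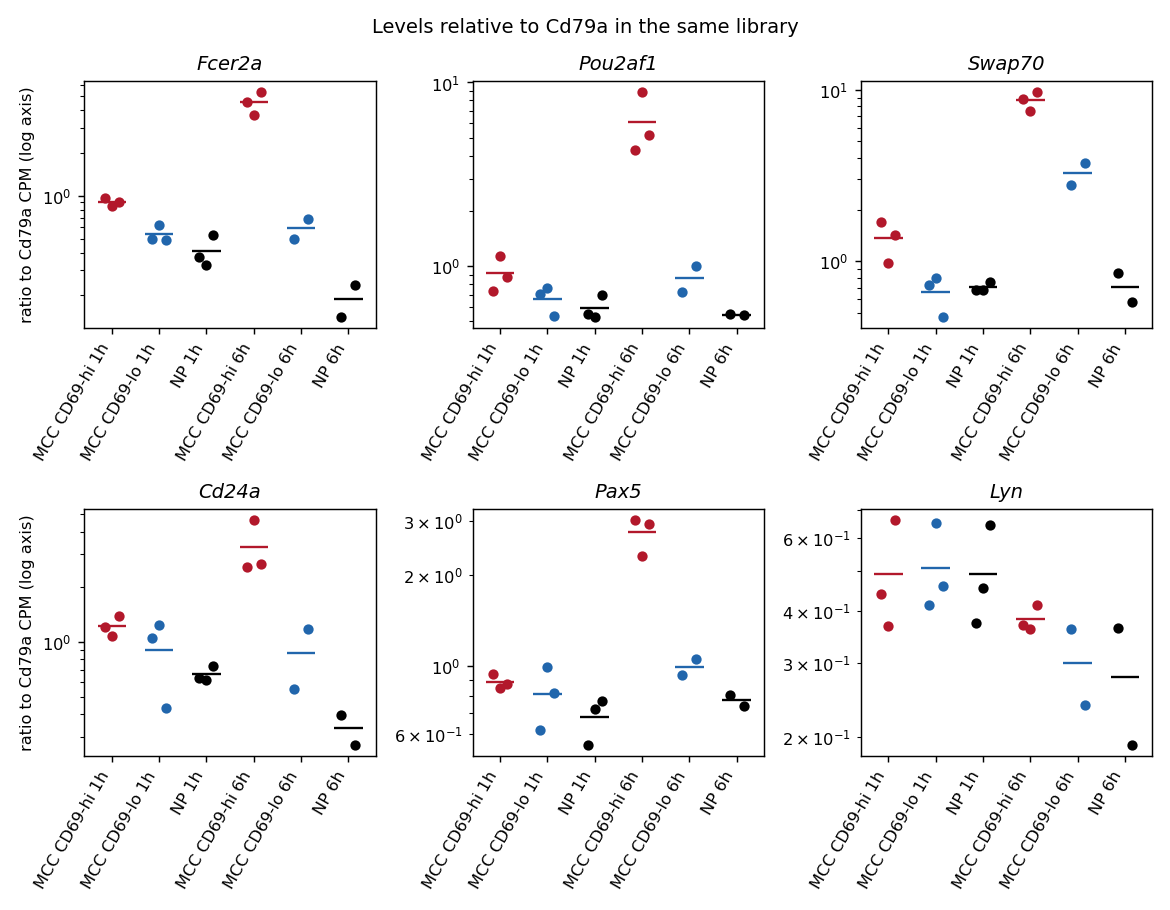
Level of 6 B-cell genes divided by that of Cd79a in the same library (log axis) at 1 and 6 h in MCC CD69-hi, MCC CD69-lo and NP; points are libraries and bars are group means. Fcer2a, Pou2af1, Swap70, Cd24a and Pax5 lie above the other groups in MCC CD69-hi at 6 h, and Lyn, at 0.364 to 0.414, does not.

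Tested against 1 h, most B-cell genes were lower in the CD69-hi sorts at 6 h. In MCC CD69-hi at 6 h 24 of 30 genes were called lower than at 1 h and none higher (18.5% of all genes were lower), and in MCC+GP CD69-hi 22 were lower (20.5%) and 1, Pou2af1, higher (23.4%). Blk, a Src-family kinase of B cells, fell the most in both, to 25.1, 10.98 and 30.2 CPM at 6 h against 241, 108 and 256 CPM at 1 h in MCC CD69-hi (-3.23 ± 0.52, adjusted p = 3.69e-06), and to 25.8, 15.3 and 27.3 CPM against 132, 244 and 211 CPM in MCC+GP CD69-hi (-3.10 ± 0.52, adjusted p = 9.46e-06, edgeR). Cd79a fell by 2.40 ± 0.46 with MCC and Ighm by 2.33 ± 0.35. Fcer2a did not pass (-0.04 ± 0.43, adjusted p = 0.972, 95% interval -0.88 to 0.80), nor did Pax5 (-0.74 ± 0.55, adjusted p = 0.297) or Ms4a1 (-1.10 ± 0.56, adjusted p = 0.12, edgeR), which passed as lower with the plate round as a block. Pou2af1 had 221, 243 and 261 CPM at 6 h against 194, 198 and 203 CPM at 1 h in MCC CD69-hi (0.29 ± 0.28, adjusted p = 0.436), and 247, 247 and 239 CPM against 145, 196 and 108 CPM in MCC+GP CD69-hi (0.71 ± 0.29, adjusted p = 0.0427, edgeR). The 6 h against 1 h tests, the 24 h against 1 h test in MCC+GP CD69-hi and the tests of the gate difference over time were added after results had been seen.

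At 24 h MCC CD69-hi held less B-cell RNA than NP. Of 30 genes 3 were called higher (Cd24a, Pou2af1 and Swap70; 29.2% of all genes were) and 16 lower (28.7%), and the lower ones included 5 of 7 receptor chains. Cd79a had 5.35, 1.84 and 9.39 CPM in MCC CD69-hi, against 37.2, 27.9 and 38.1 CPM in NP (-2.61 ± 0.54, edgeR adjusted p = 9.3e-05). Ighm had 154, 137 and 192 CPM in MCC CD69-hi, against 452, 402 and 501 CPM in NP (-1.49 ± 0.34, edgeR adjusted p = 0.000311). Fcmr had 2.11, 2.30 and 4.76 CPM in MCC CD69-hi, against 17.7, 15.4 and 22.5 CPM in NP (-2.58 ± 0.59, edgeR adjusted p = 0.000331). These 3 were apart between the groups. Fcrla had the lowest log2 fold change, with 0.845, 0.613 and 1.63 CPM in MCC CD69-hi, against 8.85, 3.77 and 9.57 CPM in NP (-2.80 ± 0.77, edgeR adjusted p = 0.00217). Cd24a had the highest, with 80.0, 51.3 and 61.8 CPM in MCC CD69-hi, against 8.64, 8.47 and 13.5 CPM in NP (2.64 ± 0.31, edgeR adjusted p = 2.23e-09). Lyn had 0.563, 0.919 and 5.58 CPM in MCC CD69-hi, against 10.1, 3.77 and 12.8 CPM in NP, with overlap (-1.89 ± 0.78, edgeR adjusted p = 0.0387). Igkc (9.15, 5.82 and 28.3 CPM against 20.5, 9.41 and 31.1 CPM in NP), Fcer2a (7.04, 7.05 and 11.3 CPM against 11.1, 6.59 and 11.2 CPM) and Pax5 (13.5, 7.66 and 25.3 CPM against 26.3, 15.4 and 32.8 CPM) overlapped NP and did not pass. Cr2 (2.39, 1.84 and 5.03 CPM against 8.24, 3.58 and 6.99 CPM) and Ms4a1 (5.91, 5.98 and 16.5 CPM against 26.1, 9.98 and 25.4 CPM) likewise overlapped. Both groups have 1 library in each of 3 plate rounds, and within a round Igkc, Pax5, Cr2 and Ms4a1 were lower in MCC CD69-hi in 3 of 3 rounds and Fcer2a in 1 of 3. With the round as a block 21 genes were called lower, Ms4a1 among them, and 3 higher. MHC class II genes were called lower in 3 of 9 cases, with sums of 83.5 to 217 CPM in MCC CD69-hi against 160 to 456 CPM in NP.

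Set against 1 h, all 30 genes were called lower in MCC CD69-hi at 24 h (26.0% of all genes were) and all 30 in MCC+GP CD69-hi (27.2%), and the 2 comparisons share no library. The largest fall with MCC was that of Blk, to 1.55, 2.45 and 3.40 CPM at 24 h against 241, 108 and 256 CPM at 1 h (-6.37 ± 0.64, adjusted p = 2.32e-10), and with MCC+GP that of Fcrla (-6.81 ± 0.84, adjusted p = 1.8e-08, edgeR). Ralgps2 fell least in both (-1.36 ± 0.26 and -0.99 ± 0.28). In NP between the same times 1 of 30 was called lower (12.6% of all genes were), Cd24a, with 8.64, 8.47 and 13.5 CPM at 24 h against 30.1, 20.2 and 19.9 CPM at 1 h (-1.19 ± 0.33, edgeR adjusted p = 0.00568). Siglecg had the highest log2 fold change there (0.70 ± 0.46, edgeR adjusted p = 0.306), and it passed with the plate round as a block. Without NP 1 h replicate 1 no gene was called there; at an unadjusted p under 0.05 there were 2 in the complete fit, with the plate round as a block there were 5 and with only the compared groups 8, and DESeq2 called 1.

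MCC CD69-lo at 24 h held more of some B-cell transcripts than NP. Of the 30, 6 genes were called higher and none lower (9.83% of all genes were higher): Cd180, Swap70, Igkc, Spib, Pou2af1 and Siglecg. Igkc had 52.0, 82.0 and 92.1 CPM in MCC CD69-lo, against 20.5, 9.41 and 31.1 CPM in NP, without overlap (1.90 ± 0.62, edgeR adjusted p = 0.0297). Vpreb3 had the highest log2 fold change but did not pass (2.63 ± 1.13, adjusted p = 0.0973), and Ralgps2 the lowest (-0.18 ± 0.25, adjusted p = 0.679, edgeR). Here 6 of 7 NK-cell genes, 9 of 19 myeloid and dendritic genes and 5 of 9 MHC class II genes were also called higher, with NK-cell sums of 52.9 to 85.5 CPM in MCC CD69-lo against 28.8 to 46.9 CPM in NP, none of the 7 at 0 in MCC CD69-lo; their part was not tested. The count of 6 was 3 without MCC CD69-lo replicate 3, 2 without NP replicate 2, 11 with DESeq2 and 13 with only the compared groups.

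Between the gates at 24 h the direction was the reverse of 1 h. With MCC 25 of 30 genes were called lower in CD69-hi than in CD69-lo (32.6% of all genes were) and 1, Cd24a, higher (29.1%), and with MCC+GP 25 were lower (20.0%) and none higher. All 7 receptor chains were lower in each. Cd79a had 5.35, 1.84 and 9.39 CPM in MCC CD69-hi, against 44.4, 68.4 and 102 CPM in MCC CD69-lo (-3.70 ± 0.56, adjusted p = 6.68e-07), and 6.16, 1.74 and 7.93 CPM in MCC+GP CD69-hi, against 147, 166 and 93.9 CPM in MCC+GP CD69-lo (-4.48 ± 0.71, adjusted p = 2.6e-06, edgeR). Neither pair overlapped. Pax5 had 13.5, 7.66 and 25.3 CPM in MCC CD69-hi, against 40.6, 62.5 and 102 CPM in MCC CD69-lo (-2.16 ± 0.63, adjusted p = 0.00358), and 14.9, 1.36 and 20.8 CPM in MCC+GP CD69-hi, against 335, 49.7 and 162 CPM in MCC+GP CD69-lo (-4.06 ± 0.73, adjusted p = 2e-05, edgeR). Fcrla was lowest in both, at -4.13 ± 0.77 with MCC (adjusted p = 2.19e-05) and -6.76 ± 1.06 with MCC+GP (adjusted p = 2.39e-06, edgeR). Cd24a was highest in both, at 80.0, 51.3 and 61.8 CPM in MCC CD69-hi against 6.61, 20.4 and 27.0 CPM in MCC CD69-lo (1.72 ± 0.33, adjusted p = 2.56e-05), and at 92.4, 45.9 and 63.8 CPM in MCC+GP CD69-hi against 19.2, 33.1 and 49.6 CPM in MCC+GP CD69-lo, where it overlapped and passed only with the plate round as a block (0.94 ± 0.49, adjusted p = 0.114, edgeR, without it). MHC class II genes were lower in CD69-hi in 8 of 9 cases with MCC and 9 of 9 with MCC+GP, and myeloid and dendritic genes in 13 and 15 of 19. MHC class II sums were 83.5 to 217 CPM in MCC CD69-hi against 823 to 1153 CPM in MCC CD69-lo, and 48.2 to 153 CPM in MCC+GP CD69-hi against 2187 to 3502 CPM in MCC+GP CD69-lo; their part was not tested. The median log2 fold change over all genes was -0.20 with MCC and 0.50 with MCC+GP, and it was -0.54 with MCC+GP under DESeq2.

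The change in the gate difference between 1 and 24 h was itself tested. The CD69-hi to CD69-lo difference was lower at 24 h than at 1 h for 26 of 30 genes with MCC (20.4% of all genes were lower) and 26 of 30 with MCC+GP (15.5%), and higher for none. The median over the 30 was -3.34 with MCC and -4.80 with MCC+GP, against 0.01 and 0.77 over all genes. The median over all genes depended on the scaling. With MCC+GP it was 0.095 with RLE size factors and -0.687 with DESeq2, and with MCC it was -0.352 and -0.482. The MCC+GP values rest on the shallow MCC+GP CD69-lo libraries of 24 h. For Cd79a the change was -3.99 ± 0.71 with MCC (adjusted p = 1.83e-05) and -4.99 ± 0.82 with MCC+GP (adjusted p = 7.81e-06, edgeR). Cd180, a Toll-like receptor homologue, changed the most with MCC (-5.06 ± 0.95) and Fcrla with MCC+GP (-7.08 ± 1.19). Cd24a (0.58 ± 0.43 with MCC, adjusted p = 0.276), Pou2af1 and Ralgps2 did not pass with either peptide setting, nor did Vpreb3 with MCC or Cr2 with MCC+GP. With the plate round as a block Ralgps2 with MCC and Cr2 with MCC+GP passed.

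**Figure D5:**
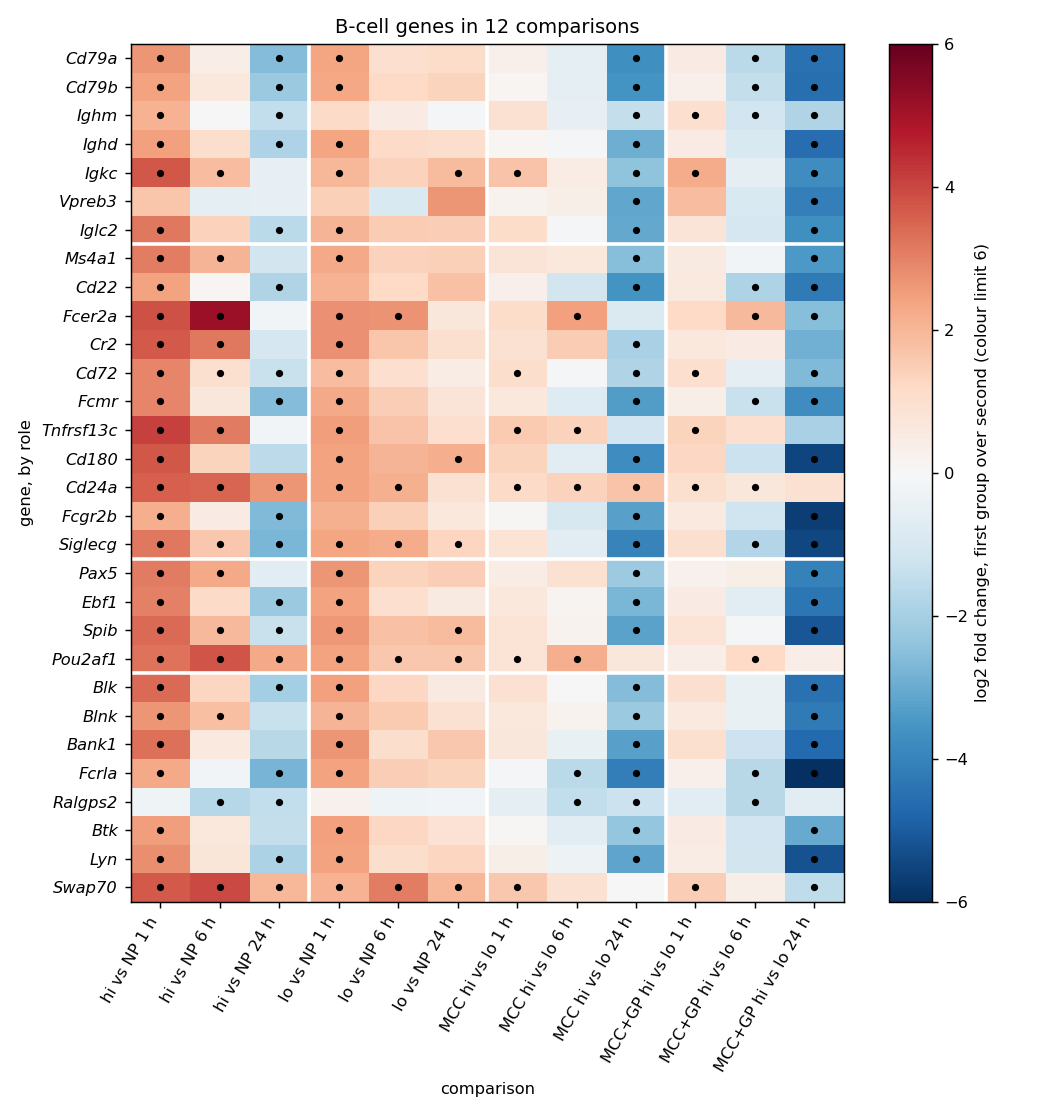
Log2 fold change of the 30 B-cell genes (rows, by role) in 12 comparisons (columns, with MCC where no peptide is named), first group over second; red is higher and blue lower in the first group, colours stop at 6, and dots mark an edgeR adjusted p under 0.05. The columns of MCC CD69-hi against NP show 28 calls at 1 h, 14 at 6 h and 19 at 24 h, and both gate comparisons at 24 h are mostly blue.

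Ighm and Ralgps2 stood out by their level in NP. Ighm was 7.57 to 10.2 times the Cd79a CPM in NP at 1 h and 12.2 to 14.4 times at 24 h, and 4.70 to 6.38 times in MCC CD69-hi at 1 h. At 24 h in MCC CD69-hi, where Cd79a was at most 9.39 CPM, the ratio was 28.8, 74.6 and 20.5. Ralgps2 averaged 2.70 times Cd79a in NP at 1 h and 0.333 times in MCC CD69-hi at 1 h.

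Other genes of mature B cells, none of them on the list of 30, were counted too. At 1 h 15 of 15 tested were called higher in MCC CD69-hi than in NP (12.4% of all genes were). In MCC CD69-lo, against those same NP libraries, 12 were called higher (2.72%). At 6 h 11 were higher (23.2%) and 1 lower (23.6%) in MCC CD69-hi than in NP. At 24 h 2 were higher (29.2%) and 4 lower (28.7%), near or below the shares of all genes. Between gates at 1 h 2 were called higher with MCC (Cd83 and Stap1), where 3.46% of all genes were. With MCC+GP 4 were called higher (Cxcr5, Cd40, Cd83 and Stap1), where 5.40% of all genes were. Rag2, the gene mutated in this strain, had 0 counts in the 6 CD69-hi libraries of 1 h and 0.214 to 1.38 CPM in NP at 1 h. At 24 h it had 2.41 to 4.56 CPM in NP. The counts do not show which part of the gene the reads came from, so they do not check the allele.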

How the data were processed

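Poly-A RNA of sorted lymph node cells was sequenced on a NovaSeq. Per the submitters' processing notes, bcl2fastq 2.20, STAR 2.6.1c and HTSeq 0.9.1 were used with mm10, and the authors deposited raw counts per gene. The strand option of the counting is not given in the sources used here, so overlapping genes are uncertain. The authors also deposited a table headed TPM per the file headers, whose per-length values sum to 9986 to 9996 per column and were taken as a score. They were rescaled here to 1000000. Counts were fitted with edgeR 4.0.16 (R 4.3.3, limma 3.58.1; TMM, filterByExpr, robust quasi-likelihood test, 1 coefficient for each of 18 groups, 51 libraries), with Benjamini-Hochberg adjustment over 17211 genes at 0.05. Intervals are 95%, from 1.96 SE. CPM use TMM library sizes. DESeq2 1.42.0 and the other alternatives are given in the closing section. Gene positions come from RefSeq's GRCm38.p6 table. In data simulated for MCC CD69-hi against NP at 1 h (15616 genes), 40 of 50 genes raised 4-fold and 26 of 50 raised 2-fold were recovered, with 10 false calls among 15416 unchanged genes. Members and lists were chosen with earlier results of these data known. Full values were given for Cd79a, Ighm, Igkc, Fcer2a, Cr2, Pax5, Ms4a1, Lyn, Fcmr and Cd24a and for the highest and lowest member of each comparison; genes outside the list came only from marker lists, with values for Rag2 and those that passed where 5 or fewer did. The values of 1 other gene that this rule names are not reported here. Jchain, S1pr2 and the composition ratios were looked at after values had been seen. Over genes with a mean of at least 1 CPM, deviations from the group mean on the log2(CPM + 1) scale correlated by -0.036 to 0.488 in 56 pairs of libraries of the same plate round, and in 12 of 23 comparisons each such pair was over 0.1. The library of round 2 had the lowest B-cell sum in 16 of 18 groups. This check was made after results had been seen, and the labels do not say what a round was.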

Additional observations from a re-analysis of the deposited data

Results flagged for a closer look

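The difference between CD69-hi and CD69-lo was itself different at 24 h and 1 h, by an edgeR test of that difference, for 26 of 30 B-cell genes with MCC and 26 with MCC+GP. On the log2 scale the change with MCC was -3.99 for Cd79a, -2.35 for Ighm, -4.13 for Igkc, -2.01 for Fcer2a, -2.87 for Cr2, -2.61 for Pax5, -3.34 for Ms4a1, -3.53 for Lyn and -4.02 for Fcmr. With MCC+GP it was -4.99 for Cd79a, -2.86 for Ighm, -5.96 for Igkc, -3.78 for Fcer2a, -4.31 for Pax5, -3.98 for Ms4a1, -5.64 for Lyn and -4.05 for Fcmr; these rest on the shallow MCC+GP CD69-lo libraries of 24 h.

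Signal also appeared in immunoglobulin genes outside the list of 30. Variable segments reached 1029 CPM in MCC CD69-hi at 1 h, against at most 102 CPM in NP at 1 h. Class-switched heavy-chain constant genes had 7.48, 11.65 and 98.65 CPM in MCC CD69-hi at 1 h, against 9.53, 0.600 and 8.79 CPM in NP, so the groups overlapped and 1 library carried the high value. In MCC+GP CD69-hi at 1 h they had 12.8, 2.07 and 4.21 CPM.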

How the results depend on the processing

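Of 338 counts of called B-cell genes under an alternative, 304 lay within 1.5 times of the reported count, and 18 of 28 comparisons had none beyond it. With 1 library left out at a time, the count ran from 7 to 27 in MCC CD69-lo against NP at 1 h, 1 to 11 and 2 to 7 in CD69-hi against CD69-lo at 1 h with MCC and with MCC+GP, 7 to 16 in MCC CD69-hi and 0 to 5 in MCC CD69-lo against NP at 6 h, 6 to 11 between the MCC+GP gates at 6 h, 2 to 8 in MCC CD69-lo against NP at 24 h, 1 to 4 in MCC+GP CD69-lo against MCC CD69-lo at 24 h, and 0 to 1 in NP at 24 h against 1 h. The labels carry no replicate number, and libraries were paired across groups by the 4 plate rounds read from wells in the titles. With the round as a replicate block the counts were 16 (MCC gates, 1 h), 12 (MCC CD69-lo against NP, 6 h), 14 and 21 (MCC and MCC+GP gates, 6 h), 13 (MCC+GP against MCC CD69-lo, 24 h) and 5 (NP, 24 h against 1 h). DESeq2 gave 11 in MCC CD69-lo against NP and 11 in MCC+GP against MCC CD69-lo at 24 h, where no filter on low counts gave 2. With only the compared groups fitted, the counts were 3 (MCC CD69-lo against NP, 1 h), 3 (MCC gates, 1 h), 13 (MCC CD69-lo against NP, 24 h) and 8 (NP over time). The cause was not tested.

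The fold of the summed CPM without immunoglobulin constant genes was 4.12 in MCC CD69-hi over NP at 6 h (2.87 with all genes), 0.847 at 24 h (0.581), and 2.17 in MCC CD69-lo over NP at 24 h (1.61). MCC CD69-hi over NP at 24 h was 0.445 without genes known in other cells and 0.461 with CPM over plain totals. Plain totals, chosen after seeing the data, gave 0.275 and 0.111 between the gates at 24 h with MCC and MCC+GP (0.361 and 0.193), and 0.974 for GP over NP at 6 h (1.00). Jchain in MCC+GP CD69-hi against MCC+GP CD69-lo at 24 h reversed under DESeq2, to -4.70 on the log2 scale (1.47 in edgeR), with at most 0.121 CPM in any of these libraries. RLE size factors moved the median of all genes by over 0.1 in 12 of 28 comparisons (-0.68 to 0.24) and DESeq2 in 13 (-1.46 to 0.43). Depth limits the 24 h libraries of MCC+GP CD69-lo most.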
